A study of Mus musculus with 2 samples.

Results

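The 9 genes described here encode proteins of thermogenic fat, the uncoupling protein Ucp1 among them. They are Ucp1, Cidea, Cox7a1, Cox8b, Prdm16, Ppargc1a, Ppargc1b, Ppara and Dio2. They were taken by gene symbol from a list that uses no threshold on a measured value but was drawn up with earlier results of these data known, and all 9 had a row among the 21113 genes of the tables. Polyadenylated RNA of the mammary gland was sequenced in 1 library from an ILN/ILN sample and 1 library from a wild-type (WT) sample. Both samples were C57BL/6 mice at postnatal week 6, with no treatment named. The ILN/ILN mouse carried an IRES-LacZ-Neo cassette at both copies of the Mir212/132 locus, which encodes miR-212 and miR-132, and the WT mouse did not carry it. The labels name no promoter or cell type to which the insertion is limited, and whether a sample held 1 animal or pooled animals is not stated. Since each genotype had 1 library, no difference below has a replicate check and no p-value was computed.

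Brown and beige adipocytes burn fuel to make heat, whereas white adipocytes store lipid. In them noradrenaline acts through beta-adrenergic receptors and cyclic AMP, which raises transcription of Ucp1 and frees fatty acids that switch on the Ucp1 protein. Ucp1 sits in the inner mitochondrial membrane and lets protons return to the matrix without making ATP. Prdm16 and the coactivators Ppargc1a and Ppargc1b direct the brown fat and mitochondrial gene programmes, and Ppara drives genes of fatty acid oxidation. The mammary gland lies in a subcutaneous fat pad, a depot in which beige adipocytes can arise in mice.

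Promoter sequences are shown for 3 of the genes, since cyclic AMP signalling is the textbook switch of Ucp1, Ppargc1a and Dio2. They come from RefSeq on the GRCm38.p6 build and run from 250 bases before to 50 bases after the annotated start, 5′ to 3′ on the strand of the gene. Capitals mark TGACG, the half-site of the cyclic AMP response element, on either strand. In Ucp1 (chr8:83290098-83290397, plus strand) the half-site begins 147 bases before the start. In Ppargc1a (chr5:51567676-51567975, minus strand) it lies on the opposite strand from 49 bases before the start. Promoters at any other start of Ppargc1a or of the other genes were not searched, so elements there would be missed. In Dio2 (chr12:90738989-90739288, minus strand) half-sites on both strands overlap and form the full element TGACGTCA, which begins 95 bases before the start.
Ucp1: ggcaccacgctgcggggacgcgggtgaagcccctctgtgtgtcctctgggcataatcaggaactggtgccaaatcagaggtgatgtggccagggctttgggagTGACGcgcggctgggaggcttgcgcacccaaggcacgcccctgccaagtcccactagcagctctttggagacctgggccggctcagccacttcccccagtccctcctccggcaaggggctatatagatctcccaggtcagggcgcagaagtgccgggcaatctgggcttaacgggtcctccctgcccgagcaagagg
Ppargc1a: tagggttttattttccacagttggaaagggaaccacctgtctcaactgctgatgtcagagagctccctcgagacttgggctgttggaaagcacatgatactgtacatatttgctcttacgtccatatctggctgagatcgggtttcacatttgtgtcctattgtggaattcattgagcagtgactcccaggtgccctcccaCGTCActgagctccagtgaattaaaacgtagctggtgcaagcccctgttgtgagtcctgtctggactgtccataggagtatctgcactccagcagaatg
Dio2: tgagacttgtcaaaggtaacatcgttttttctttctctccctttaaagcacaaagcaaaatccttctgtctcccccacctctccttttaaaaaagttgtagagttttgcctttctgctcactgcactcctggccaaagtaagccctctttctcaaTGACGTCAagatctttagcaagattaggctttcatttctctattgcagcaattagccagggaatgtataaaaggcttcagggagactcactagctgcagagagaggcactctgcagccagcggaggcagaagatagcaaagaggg

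Of the 9 genes, 7 matched the promoter table by gene identifier; Cidea and Ppargc1b did not. The half-site was also found in Ppara, 222 bases before the start, so that 4 of 7 held it. Among one promoter for each of 9223 measured genes that matched, 31.8% held it. The full element was in 1 of the 7, Dio2, in 3.17% of the promoters of measured genes and in 1.88% of all promoters. The nuclear receptor half-site AGGTCA was in 1 of the 7, Ucp1, and in 12.1%, and TATAAA was in 2 of the 7, Dio2 and Cox8b, and in 6.93%. Each motif was searched on both strands, and a match is a description of letters and not a site of binding. Of the genes with the cyclic AMP half-site, Ucp1 was lower in the ILN/ILN library in the data below, and Ppara and Ppargc1a were higher. Dio2 was not counted as measured. Whether the half-site bears on these directions was not tested.

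The microRNAs of the locus share their seed, bases 2 to 8 of the mature strand, which is shown in capitals because the insertion lies at their genes. The sequences are the 3p strands from RefSeq (GRCm38.p6).
miR-132-3p: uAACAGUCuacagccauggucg
miR-212-3p: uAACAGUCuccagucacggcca

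The match to this seed, GACTGTT, was sought in 3′ untranslated regions from GENCODE release M21, also on GRCm38, with the longest one taken per gene. It was present in 12.7% of 10277 measured genes and in 0 of the 9 thermogenic genes. These regions ranged from 43 bases in Cox8b and 111 in Cox7a1 to 4785 in Prdm16 and 4860 in Dio2, so the short ones gave little sequence to search. For Ppara the region searched was 1561 bases, while the gene length behind its deposited level is 7061 bases. Some 3′ sequence of the measured Ppara transcript may therefore lie outside the search. Other kinds of pairing were not searched.

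The levels below are the deposited values in an FPKM-like unit, signal scaled by gene length and library size and called level here, so that levels of different genes can be compared. Genes that reached a level of 1 in one library or both, 11556 in all, were counted as measured. The ILN/ILN library had 42953129 gene-assigned fragments, and the WT library had 46133338. Ratios of fragments are scaled by these totals, and the interval after each is an exact conditional 95% interval (Clopper-Pearson) that covers counting error alone. A log2 ratio always means log2 of (level + 1) in ILN/ILN over (level + 1) in WT, and a 2-fold difference means a log2 ratio past 1 in size. Sequenced fragments are not independent molecules, and differences between animals or dissections lie outside the intervals.

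Of the 9 genes 8 were measured. On the log2 scale 1 of the 8, Ucp1, was lower in ILN/ILN by 2-fold or more, as were 1.72% of all measured genes, and 1 of the 8, Ppargc1a, was at least 2-fold higher, as were 0.407%. The Ppargc1a value rests on different estimates in the 2 libraries and did not pass 2-fold from fragments. From original estimates alone Ppargc1a was below a level of 1 in both libraries, and 7 of the 9 genes were measured. The median log2 ratio of the 8 was -0.02, beside 0.02 over all measured genes. Of the 8, 5 lay within 1.25-fold, namely Cidea, Ppargc1b, Prdm16, Cox7a1 and Cox8b, as did 78.2% of all measured genes. The genes did not share a direction.

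**Figure D1:**
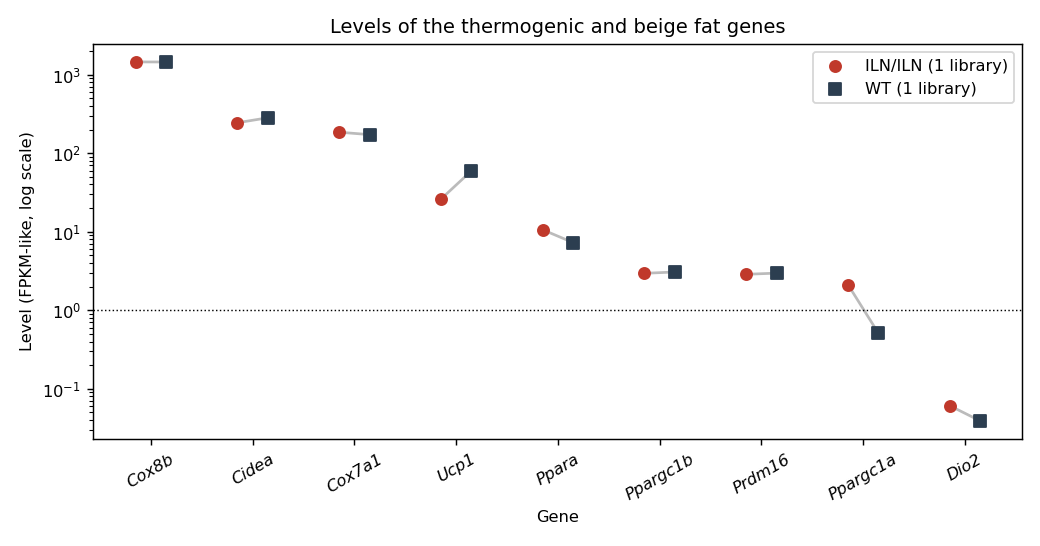
Levels (FPKM-like, log axis) of the 9 genes in the ILN/ILN library (red circles) and the WT library (dark squares), 1 library each, ordered by the WT level, with the dotted line at the minimum of 1. Cox8b stands highest at 1451 in ILN/ILN and 1449 in WT, and Ucp1 and Ppargc1a show the widest gaps between the libraries.

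Among the effectors of heat production, Ucp1 had a level of 26.0 in the ILN/ILN library and 59.7 in the WT library. These values came from 1843 fragments in ILN/ILN and 4551 in WT. Ucp1 was thus 2.30-fold lower in ILN/ILN (2.18 to 2.43). A log2 ratio at or below that of Ucp1, -1.17, was found in 123 measured genes, or 1.06%. Among the 3518 genes with a level of at least 20 in either library the share was 0.824%. Its table entry has 1 isoform and both estimates were equal in each library, so the value comes from fragments alone. None of the 36-base words of its longest transcript occurs in a transcript of another gene in GENCODE.

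Cidea encodes a lipid droplet protein that is abundant in brown and beige adipocytes. Its level was 244 in ILN/ILN and 282 in WT, with 12019 and 14946 fragments in ILN/ILN and WT. It was 1.16-fold lower (1.13 to 1.19), a much smaller difference than that of Ucp1. Within each library Ucp1 stood at 10.6% of the Cidea level in ILN/ILN and at 21.1% in WT.

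The other 2 abundant genes encode tissue-restricted subunits of cytochrome c oxidase, the last complex of the respiratory chain. Both are made in heart and skeletal muscle and in brown fat, while Cox7a2 and Cox8a are the widely expressed forms. Cox8b had a level of 1451 in ILN/ILN and 1449 in WT, from 20256 fragments in ILN/ILN and 21742 in WT. The interval of the ratio ran from 0.982 to 1.02, and by level Cox8b was gene 56 of 21113 in ILN/ILN and gene 67 in WT. Cox7a1 had a level of 185 in ILN/ILN and 172 in WT. Each library happened to hold 2666 Cox7a1 fragments, which after scaling is a ratio of 1.07 (1.02 to 1.13). Cox8b and Cox7a1 therefore stood within 1.25-fold of WT in a library in which Ucp1 was 2.30-fold lower.

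The share of the restricted form in its pair was also close. Cox8b made up 46.3% of the summed Cox8b and Cox8a levels in ILN/ILN and 47.9% in WT. Cox7a1 made up 22.4% of the summed Cox7a1 and Cox7a2 levels in ILN/ILN and 20.7% in WT. Cox8a itself was at 1680 in ILN/ILN and 1579 in WT, and Cox7a2 at 641 in ILN/ILN and 661 in WT.

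Since Cox7a1 and Cox8b are also muscle genes, markers of skeletal muscle were examined. The summed level of 16 muscle genes was 74.4 in ILN/ILN and 65.4 in WT, mostly from Myl1, at 51.4 in ILN/ILN and 37.7 in WT, Des and Acta1. Of the 16 genes 7 were measured, 1 above WT and 6 below, beside 52.3% of all measured genes above WT. The median log2 ratio of the 7 was -0.21. Acta1, the skeletal actin gene, was at 7.90 in ILN/ILN and 8.20 in WT, with 484 fragments in ILN/ILN and 540 in WT. Tnni2, a fast troponin gene, was at 1.53 in ILN/ILN and 1.81 in WT, and Mylpf, a fast myosin light chain gene, at 0.942 in ILN/ILN and 1.94 in WT. Some muscle transcripts were therefore present in both libraries, while others of the list were at or near 0. Ckm, the muscle creatine kinase gene, was at 0.0500 in ILN/ILN and 0.138 in WT, and the fast myosin gene Myh4 was at 0 in ILN/ILN and 0.0270 in WT. Cox6a2, the muscle form of another oxidase subunit, was at 0.586 in ILN/ILN and 1.09 in WT. Ckm and Myh4 were picked with their values known. The part of muscle in the Cox7a1 and Cox8b levels was not tested.

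Dio2 encodes the deiodinase that makes active thyroid hormone inside brown adipocytes. It was at 0.0610 in ILN/ILN and 0.0390 in WT, with 16 fragments in ILN/ILN and 11 in WT. It was not counted as measured. The ratio of 1.56 had an interval of 0.681 to 3.72, which includes 1, so no difference was detectable at this depth.

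Among the regulators, Ppara, the nuclear receptor, had a level of 10.6 in ILN/ILN and 7.26 in WT. Its 3379 fragments in ILN/ILN and 2489 in WT gave a ratio of 1.46 (1.38 to 1.54). A log2 ratio at or above that of Ppara, 0.49, was found in 369 measured genes, or 3.19%. The related receptor genes differed less: Pparg, the master regulator of adipocytes, was at 149 in ILN/ILN and 147 in WT, and Ppard was at 11.1 in ILN/ILN and 11.95 in WT. Ppara stood at 95.5% of the Ppard level in ILN/ILN and at 60.7% in WT.

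Ppargc1a encodes the coactivator PGC-1 alpha, which links cyclic AMP to mitochondrial genes. Its deposited level was 2.12 in ILN/ILN and 0.509 in WT, but these numbers were not made in the same way. The authors' tables hold an original and a derived estimate of signal per kilobase, and the larger one is used. In ILN/ILN the original estimate was 38.5 and the derived one 95.9, whereas in WT the original was 24.7 and the derived 0. From the original estimates alone the level was 0.851 in ILN/ILN and 0.509 in WT. The 243 fragments in ILN/ILN and 156 in WT gave a ratio of 1.67 (1.36 to 2.06). The log2 ratio was 1.05 as deposited and 0.30 from the original estimates, so the 2-fold call rests on the derived estimate. The gene has 2 isoforms in the tables, and levels of single isoforms were not analysed here.

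**Figure D2:**
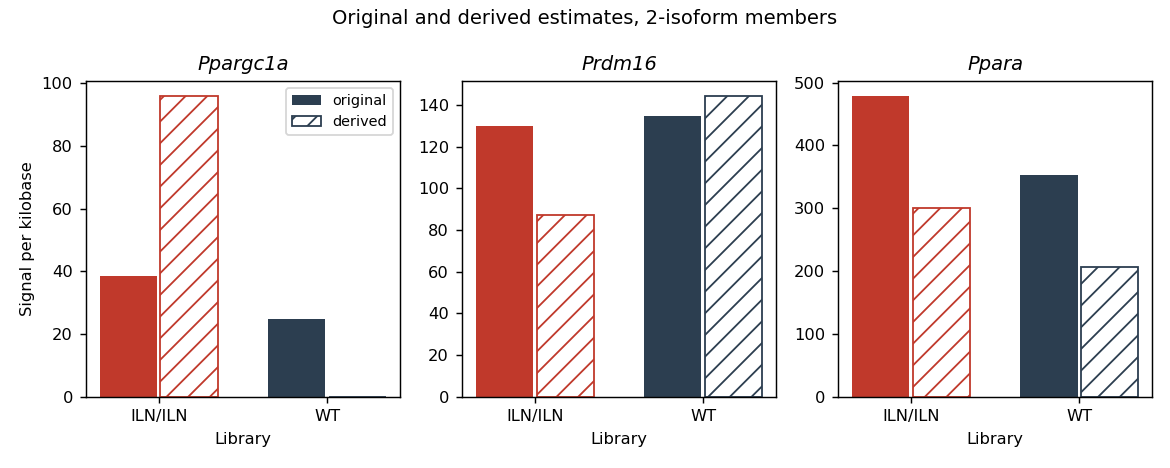
Original (filled) and derived (hatched) estimates of signal per kilobase for the 3 genes with 2 isoforms, ILN/ILN at the left and WT at the right of each panel, with vertical axes that start at 0 and differ between panels. The larger estimate sets the deposited level, which is the derived one for Ppargc1a in ILN/ILN and for Prdm16 in WT.

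Ppargc1b encodes the paralog PGC-1 beta. It was at 2.95 in ILN/ILN and 3.07 in WT, with 478 fragments in ILN/ILN and 534 in WT and a ratio of 0.961 (0.848 to 1.09). The third family member, Pprc1, was at 4.23 in ILN/ILN and 4.63 in WT. Prdm16, the transcriptional regulator of brown adipocyte identity, was at 2.87 in ILN/ILN and 2.97 in WT. Here the WT value came from the derived estimate of 144, above the original of 135, and the ILN/ILN value from the original estimate of 130. Its 1065 fragments in ILN/ILN and 1105 in WT gave a ratio of 1.04 (0.951 to 1.13), and the sign of its log2 ratio changed from -0.04 as deposited to 0.04 from the original estimates. The intervals of both ratios include 1. Of the 36-base words of Prdm16, 0.922% also occur in its paralog Mecom or in the transcript B230104I21Rik.

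**Figure D3:**
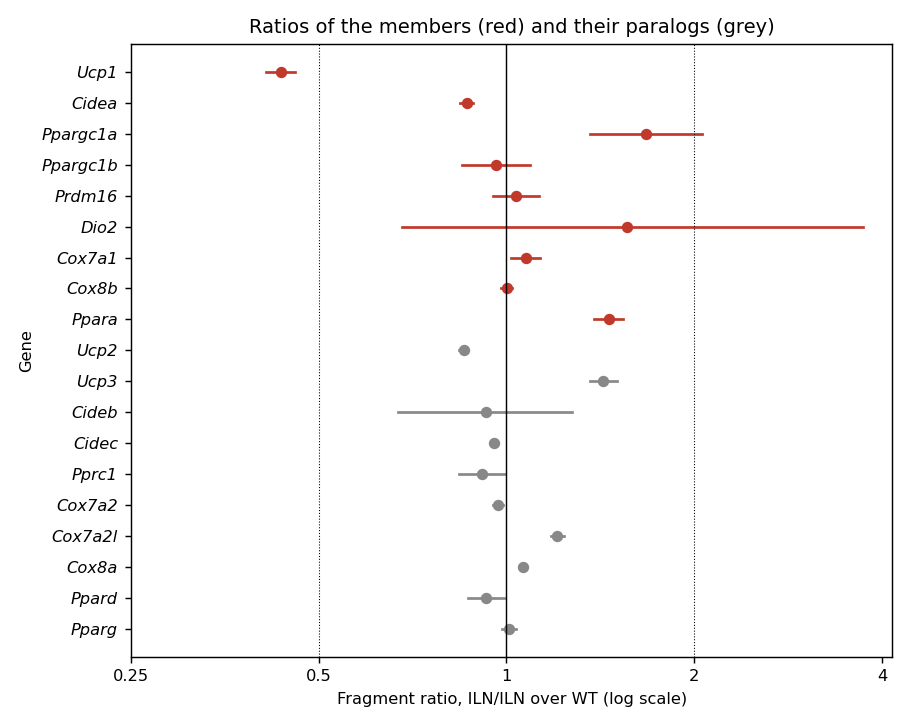
Ratio of fragments, ILN/ILN over WT on a log axis, with exact 95% counting intervals for the 9 genes (red) and for their measured paralogs with fragments (grey); dotted lines mark 2-fold. Ucp1 at 0.435 lies below 0.5 with its whole interval, and the interval of Dio2 is the widest. Ppara, Ppargc1a, Ucp3 and Cox7a2l are among the genes to the right of 1.

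The paralogs of the 9 genes were compared as genes of the same families with other main roles. Of 14 paralogs 10 were measured, and their median log2 ratio was -0.06. Of the 10, 0 were past 2-fold in either direction, while 1.72% of all measured genes were lower and 0.407% higher to that extent. Ucp3, an uncoupling protein homologue of muscle and fat, was at 33.6 in ILN/ILN and 23.5 in WT, a ratio of 1.43 (1.36 to 1.5). Ucp2, a homologue with wide expression, was at 134 in ILN/ILN and 157 in WT, a ratio of 0.855 (0.841 to 0.869). By level Ucp1 was thus 77.2% of Ucp3 in ILN/ILN and 254% of it in WT. Cidec, the main Cide gene of white fat, was at 2694 in ILN/ILN and 2821 in WT, and Cideb, a liver form, at 3.55 in ILN/ILN and 3.83 in WT. Cox7a2l, which encodes a factor that joins respiratory complexes, was at 314 in ILN/ILN and 310 in WT, the WT value being a derived estimate. Its 13557 fragments in ILN/ILN and 12059 in WT gave a ratio of 1.21 (1.18 to 1.24). Mecom was at 0.968 in ILN/ILN and 0.825 in WT, from derived estimates with no fragments given. Dio3 had 0 fragments in ILN/ILN and 9 in WT, and Dio1 and Cox8c had 0 in both.

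**Figure D4:**
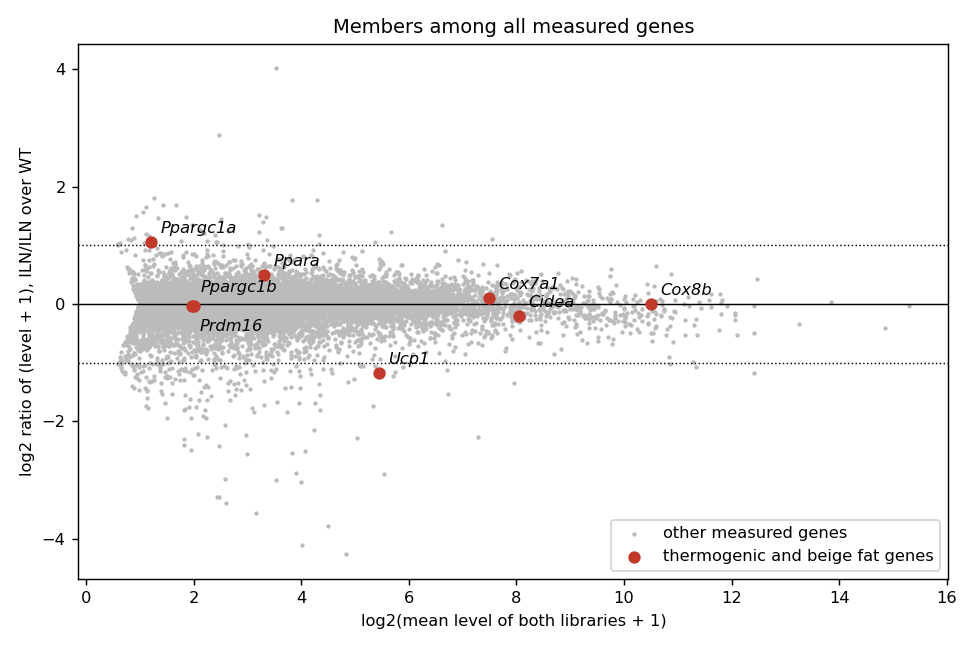
Log2 ratio of (level + 1), ILN/ILN over WT, against the log2 of the mean level plus 1 for 11556 measured genes (grey) and the 8 measured thermogenic genes (red); dotted lines mark 2-fold. Ucp1 lies below the lower line, Ppargc1a just above the upper line, and the other 6 between them.

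Markers of other cell types also differed between the libraries, and their values are given beside the Ucp1 result. In bulk tissue fewer cells of a type and less RNA per cell cannot be told apart. White adipocyte markers were all measured, with a median log2 ratio of 0.15 and a summed level of 91644 in ILN/ILN and 99368 in WT. Of the 14 markers 0 were past 2-fold, while 1.72% of all measured genes were lower and 0.407% higher to that extent. Of the 14, 11 were above WT and 3 below, beside 52.3% of all measured genes above WT. Cfd, one of the 3, weighs heavily in the sum, at 25466 in ILN/ILN and 33952 in WT. Of 14 measured lymphocyte markers 13 were lower in ILN/ILN by 2-fold or more, as were 1.72% of all measured genes. The summed level of all 15 lymphocyte markers was 64.5 in ILN/ILN and 260 in WT. Of 9 measured luminal epithelial markers 8 were at least 2-fold lower, beside the same 1.72%. The summed level of 14 luminal genes was 12.4 in ILN/ILN and 52.6 in WT. Krt8, Elf5, Cldn7 and Pgr were at 0 in ILN/ILN. Of the 7 basal epithelial markers 4 were measured, 1 above WT and 3 below, with a median log2 ratio of -0.23. None of the 4 was past 1.5-fold, while 5.39% of all measured genes were lower and 1.90% higher to that extent. Krt5, Krt14 and Krt17 were not counted as measured. They were at 0 in ILN/ILN and at 0.801, 0.846 and 0.833 in WT. The summed level of all 7 was 50.9 in ILN/ILN and 66.9 in WT. Endothelial markers summed to 220 in ILN/ILN and 190 in WT, and fibroblast markers to 4477 in ILN/ILN and 4382 in WT. The part of these cells in the Ucp1 difference was not tested. Relative to Adipoq, the adiponectin gene of all adipocytes, Ucp1 stood at 0.726% in ILN/ILN and 1.69% in WT, and Cidea at 6.82% in ILN/ILN and 7.99% in WT.

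Other genes of brown and beige adipocytes lay on both sides of WT. Of 24 measured genes 0 were past 2-fold, while 1.72% of all measured genes were lower and 0.407% higher to that extent. Of the 24, 16 (66.7%) were above WT, beside 52.3% of all measured genes. Their median log2 ratio was 0.16. Past 1.5-fold 4 were higher and 1 lower, while 1.90% of all measured genes were higher and 5.39% lower to that extent. The 4 were Fabp3, a fatty acid binding protein gene, Mtus1, Clstn3 and Pdk4, an inhibitor of glucose oxidation. Fabp3 was at 20.01 in ILN/ILN and 11.008 in WT, a ratio of 1.82 (1.58 to 2.09). Mtus1 was at 38.4 in ILN/ILN and 24.0 in WT, a ratio of 1.60 (1.54 to 1.67). The lower gene was Tnfrsf9, a beige marker in mice that T cells also express, at 0.494 in ILN/ILN and 1.39 in WT, and its WT value came from the derived estimate. Acot11, a thioesterase gene of brown fat, was at 2.93 in ILN/ILN and 4.77 in WT. Its 611 fragments in ILN/ILN and 1070 in WT made it 1.63-fold lower (1.47 to 1.80), while its log2 ratio of -0.56 stayed short of 1.5-fold. Epsti1, picked with its values known, was at 14.0 in ILN/ILN and 20.6 in WT, 1.48-fold lower (1.32 to 1.65).

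Slc36a2, an amino acid transporter gene of brown fat, was the most abundant of this list, at 206 in ILN/ILN and 184 in WT. Zic1, Lhx8 and Elovl3, picked from this list with their values already known, were low in both libraries. Zic1 had 0 fragments in both libraries, Lhx8 was at 2.23 in ILN/ILN and 1.65 in WT, and Elovl3, a fatty acid elongase gene of cold-exposed brown fat, was at 0.282 in ILN/ILN and 0.274 in WT. With a count of 0, up to 3 fragments per library cannot be told from none.

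In the adrenergic pathway that switches on Ucp1, 18 of 20 genes were measured. None was past 2-fold or 1.5-fold, while 5.39% of all measured genes were lower and 1.90% higher past 1.5-fold. Of the 18, 14 (77.8%) were above WT, beside 52.3% of all measured genes, and the median log2 ratio was 0.15. The receptor genes Adrb3 and Adrb1 differed in direction. Adrb3, the main beta-adrenergic receptor of mouse adipocytes, was at 100.4 in ILN/ILN and 88.5 in WT, a ratio of 1.13 (1.11 to 1.16). Adrb1 was at 1.24 in ILN/ILN and 1.82 in WT, a ratio of 0.678 (0.542 to 0.844). Pde3b, a phosphodiesterase that breaks down cyclic AMP, was at 30.5 in ILN/ILN and 20.5 in WT, a ratio of 1.48 (1.43 to 1.54). Adrb3 was chosen after its values were seen. The lipase genes downstream, Lipe and Pnpla2, were at 933 and 2443 in ILN/ILN and at 810 and 2238 in WT.

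Of 35 transcription regulators of thermogenesis 31 were measured, with 20 (64.5%) above WT, beside 52.3% of all measured genes, and a median of 0.06. Of the 31, 0 were past 2-fold, while 1.72% of all measured genes were lower and 0.407% higher to that extent. Cebpb, a factor of brown adipocyte formation that acts with Prdm16, was at 13.4 in ILN/ILN and 26.9 in WT. Its 868 fragments in ILN/ILN and 1874 in WT gave a ratio of 0.497 (0.458 to 0.539), while its log2 ratio of -0.96 stayed short of 2-fold. Zbtb16 was at 5.77 in ILN/ILN and 9.98 in WT, a ratio of 0.578 (0.540 to 0.619). Nrip1, a corepressor of Ucp1 and of oxidative genes, was at 20.9 in ILN/ILN and 13.8 in WT, a ratio of 1.52 (1.45 to 1.59). These 3 genes are also expressed outside adipocytes.

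Because Ppara was higher, the genes that it is known to activate were described as a group. Of 28 measured genes 24 (85.7%) were above WT, beside 52.3% of all measured genes, and the median log2 ratio was 0.21. None passed 2-fold on the log2 scale, where adding 1 shrinks the ratios of genes at low levels. Of all measured genes 1.72% were lower and 0.407% higher to that extent. Fabp3 and Pdk4, which also stand on the brown fat list, were past 1.5-fold higher, and Fabp1 was past 1.5-fold lower. Past 1.5-fold, 1.90% of all measured genes were higher and 5.39% lower. From fragments, 21 in ILN/ILN and 47 in WT, Fabp1 was 2.08-fold lower (1.22 to 3.67). Acot1, a thioesterase gene, had 104 fragments in ILN/ILN and 61 in WT, a ratio of 1.83 (1.32 to 2.55). Acaa1b, a peroxisomal thiolase gene, was at 20.3 in ILN/ILN and 13.8 in WT, a ratio of 1.47 (1.34 to 1.62). Acadm, an enzyme gene of mitochondrial fatty acid oxidation, was at 362 in ILN/ILN and 326 in WT. Cyp4a10 and Cyp4a14, strong targets in liver that were picked with their values known, had 0 fragments in both libraries. White adipocyte markers were also above WT in 11 of 14, with a median of 0.15, so the shift was not seen in this group alone.

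Of 16 measured cytochrome c oxidase subunit genes 7 (43.8%) were above WT and 9 below, beside 52.3% of all measured genes above WT, with a median of -0.08 and a range from -0.65 for Cox6b2 to 0.10 for Cox7a1. Cox6c was at 605 in ILN/ILN and 804 in WT. Of 15 regulators of mitochondrial biogenesis and shape 11 (73.3%) were above WT, beside 52.3% of all measured genes, with a median of 0.19. One of them was at least 2-fold higher, as were 0.407% of all measured genes. It was Opa1, which encodes a fusion protein of the inner membrane, at 27.0 in ILN/ILN and 11.5 in WT. Its ILN/ILN value came from the derived estimate, and its 3476 fragments in ILN/ILN and 3227 in WT gave a ratio of 1.16 (1.10 to 1.21). Mfn2, a fusion protein gene of the outer membrane, was at 98.9 in ILN/ILN and 80.2 in WT.

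**Figure D5:**
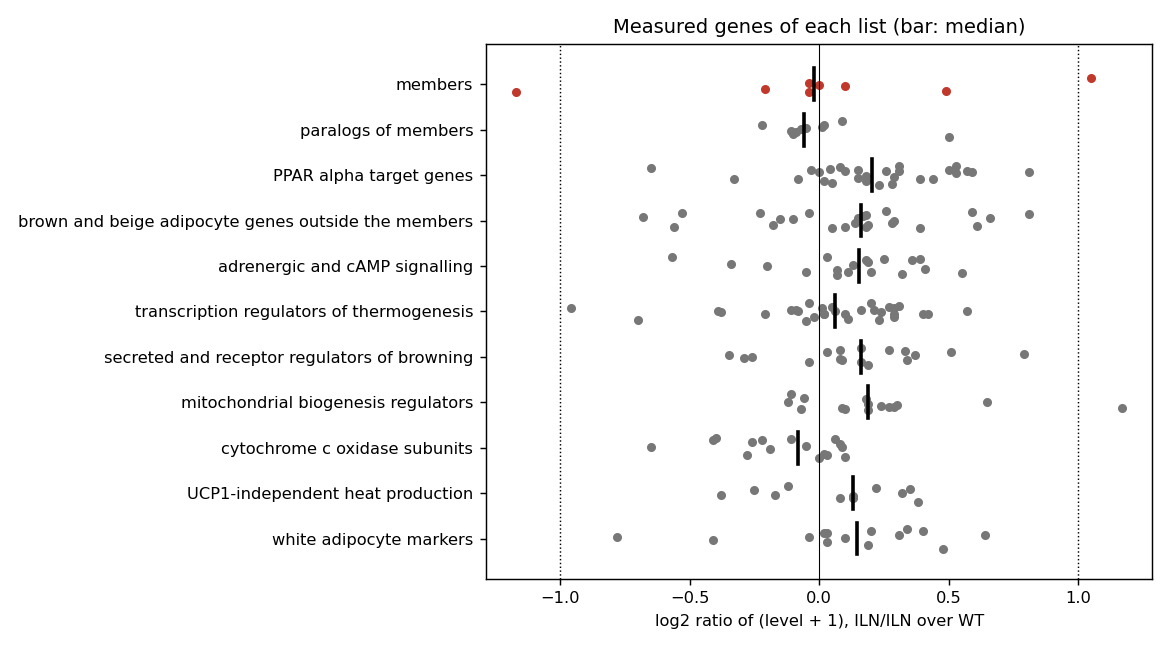
Log2 ratio of (level + 1), ILN/ILN over WT, for each measured gene (points) of the 9 genes and of 10 related lists, with black bars at the medians and dotted lines at 2-fold; vertical scatter within a row carries no value. The 9 genes (top) range from -1.17 for Ucp1 to 1.05 for Ppargc1a, and the medians of the lists lie between -0.08 and 0.21.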

How the data were processed

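Total RNA of mammary gland was selected for polyadenylated RNA, and strand-marked libraries were sequenced on 2 lanes per sample, per the labels' protocols. Per the submitters' processing notes, mm9 was the build, and the tools listed with no role were TopHat 1.4.1, Bowtie 0.12.3 and bedtools. What program made the gene tables, and whether it used strand, is not stated. The authors deposited an FPKM-like value and its log2(value + 1). They also deposited 3 columns of signal per kilobase, original, derived and final; in 100% of genes the final value equals whichever of the others is larger. In the deposited tables the original signal times gene length was whole, within 0.01, in 100% of genes above 0, and is called fragments. Estimates differed in kind between the libraries in 230 measured genes (1.99%), and in 2 of the 9 genes.

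Groups came from the genotype labels, with 1 library each, so ratios were described without tests. Python 3.11.15 and scipy 1.17.1 were used, and steps were tested on simulated data. The genes and lists were chosen with earlier results of these data known. All 9 genes and their paralogs were named, and from each other list up to 6 measured genes with the largest fragment ratios and the 3 highest in WT; the genes named outside this rule, with their values known, were Adipoq, Adrb3, Ckm, Cldn7, Cyp4a10, Cyp4a14, Elf5, Elovl3, Epsti1, Krt14, Krt17, Krt5, Krt8, Lhx8, Myh4, Pgr, Th and Zic1. Genes alike in pattern were not sought, since 2 libraries give 1 ratio per gene. Coordinates are on GRCm38, not the submitters' mm9, and belong to the printed promoters alone. Mir212 and Mir132 were not analysed here, so the targeted transcripts gave no check of the genotype labels.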

Additional observations from a re-analysis of the deposited data

How the results depend on the processing

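Alternatives were pseudocounts of 0.1 and 5, the original estimate alone, TMM and median ratio scaling, no minimum, a minimum of 5 and a 1.5-fold threshold. Ucp1 was the 1 gene of the 9 counted as lower in all of them, with a log2 ratio between -1.20 and -1.06. Ppargc1a was not counted as higher with a pseudocount of 5, from original estimates alone or at a minimum of 5. This left 0 genes higher each time. In the last 2 of these settings Ppargc1a lay under the minimum level and was not counted as measured. The settings left 7 and 5 of the 9 genes measured. The log2 ratio of Ppargc1a ranged from 0.30 to 1.87. Over all measured genes 376 were lower and 100 higher with a pseudocount of 0.1, against 50 lower and 9 higher with 5, 115 lower and 26 higher at a minimum of 5, and 623 lower and 220 higher at 1.5-fold. The main counts were 199 lower and 47 higher. Of 45 recomputed ratios of the 9 genes 40 moved by less than their counting interval and 5 by more, all in Ucp1, Ppargc1a or Ppara. Prdm16 ranged from -0.05 to 0.04 and Cox8b from -0.02 to 0.00. No paired analysis was possible because each genotype had 1 library, and for the same reason no library could be left out. The shift between genotypes cannot be told apart from a difference between animals or dissections.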

Other observations

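Genes of heat production without Ucp1, by calcium or creatine cycling or by turnover of triglyceride, were examined as well. Of 12 measured genes 8 (66.7%) were above WT, beside 52.3% of all measured genes, and the median log2 ratio was 0.13. Of the 12, 0 were past 1.5-fold, while 5.39% of all measured genes were lower and 1.90% higher to that extent. Atp2a2, a calcium pump gene, was at 25.7 in ILN/ILN and 19.5 in WT, a ratio of 1.32 (1.26 to 1.38). Alpl, a phosphatase gene linked to creatine cycling in mouse beige fat, was at 1.67 in ILN/ILN and 2.48 in WT, and Ckb, a creatine kinase gene, at 22.7 in ILN/ILN and 27.2 in WT. Dgat2, an enzyme gene of triglyceride synthesis, was at 1020.4 in ILN/ILN and 818 in WT.

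Among secreted and receptor regulators of browning 13 of 17 measured genes (76.5%) were above WT, beside 52.3% of all measured genes, with a median of 0.16. Npr3, the clearance receptor for natriuretic peptides, was at 39.7 in ILN/ILN and 22.5 in WT from derived estimates in both libraries, and its fragments gave a ratio of 2.13 (2.03 to 2.24). Nrg4, a growth factor secreted by brown fat, was at 131 in ILN/ILN and 117 in WT. Bmp4 was at 4.24 in ILN/ILN and 2.69 in WT, a ratio of 1.57 (1.34 to 1.86). Of 7 measured nerve and Schwann cell markers 3 were past 1.5-fold lower, as were 5.39% of all measured genes, and Th, the first enzyme gene of noradrenaline synthesis, had 0 fragments in both libraries; it was chosen after its values were seen.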
